A study of Mus musculus with 12 samples.

Results

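The genes described here are 10 components and targets of the pathway that joins the kinase GSK3 to β-catenin: Gsk3b, Frat1, Frat2, Ctnnb1, Tcf7l2, Lef1, Axin2, Znrf3, Fzd7 and Sox4. They were taken by gene symbol, and all 10 were found among the 18820 genes of the array table, each with 1 probe set. Expression was measured in B lymphoma cells grown as primary cultures from λ-MYC;B1-8f mice (C57BL/6J x BALB/c). These mice develop MYC-driven B lymphomas whose antigen receptor (B-cell receptor, BCR) has a heavy chain, B1-8f, that Cre can delete. All cultures had received TAT-Cre, a cell-permeable Cre recombinase, and the BCR-positive cells were exposed to it too. BCR-positive and BCR-negative cells of lymphomas 2564, 2646 and 2676 shared a culture for 4 days, without drug or with CHIR99021, which inhibits GSK3, and were then sorted. The 4 groups were untreated BCR-positive, untreated BCR-negative, CHIR99021-treated BCR-positive and CHIR99021-treated BCR-negative cells, with 1 array per lymphoma and 3 arrays each. The labels used here give no dose of CHIR99021 and no age of the mice. For every difference n = 3 lymphomas.

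GSK3 phosphorylates β-catenin, the product of Ctnnb1, inside a complex built on axin, and phosphorylated β-catenin is degraded. When a Wnt ligand binds a Frizzled receptor, or when GSK3 is inhibited, β-catenin is known to accumulate, enter the nucleus and bind TCF/LEF proteins. In many tissues it then raises a set of feedback genes that includes Axin2, Lef1 and Znrf3. Whether inhibition of GSK3 gave such a response here, and whether it depended on the BCR, was asked of transcripts only, since an array reads neither the amount nor the phosphorylation of a protein.

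Frat1 and Frat2 encode binding proteins that take GSK3 away from axin. They lie next to each other in the RefSeq gene table, on opposite strands of chromosome 19, with 0 genes listed between them. Their start regions are shown because both genes were lower with CHIR99021. Each sequence runs 5′ to 3′ along its gene, from 120 bases before the RefSeq start to the first 30 bases after it. The positions are chr19:41829850-41829999 on the plus strand for Frat1 and chr19:41848103-41848252 on the minus strand for Frat2 (GRCm38.p6). Capitals mark the only match of each window to GTAAACA, a motif bound by FOXO factors, here read on the other strand as TGTTTAC.
Frat1: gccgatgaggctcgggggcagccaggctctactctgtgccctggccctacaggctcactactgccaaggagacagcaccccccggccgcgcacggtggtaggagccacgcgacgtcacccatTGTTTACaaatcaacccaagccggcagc
Frat2: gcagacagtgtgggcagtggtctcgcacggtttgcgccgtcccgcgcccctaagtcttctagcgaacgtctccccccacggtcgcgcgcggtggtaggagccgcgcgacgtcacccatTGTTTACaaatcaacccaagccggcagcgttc

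Over windows of 300 bases (250 before to 50 after the start), both genes shared an identical run of 63 bases that holds the motif. The RefSeq table had start windows for 9 of the 10 genes, all but Znrf3, and 14 windows in all. Of these 14 windows, 2 held GTAAACA on either strand, those of Frat1 and Frat2, and over all 32851 windows in the table the share with a match was 3.65%. Both matches lie in the shared run, so they are not separate occurrences. The TCF/LEF letters CTTTGAT or CTTTGAA, on either strand, were in 0 of the 14 windows and in 8.65% of all windows. These are matches of letters in short windows and say nothing of binding. The motifs were chosen with earlier results of these data known. The shared run reaches into the start of both transcripts, and the array's probe sequences were not used here, so whether a probe reads both genes was not tested.

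**Figure D1:**
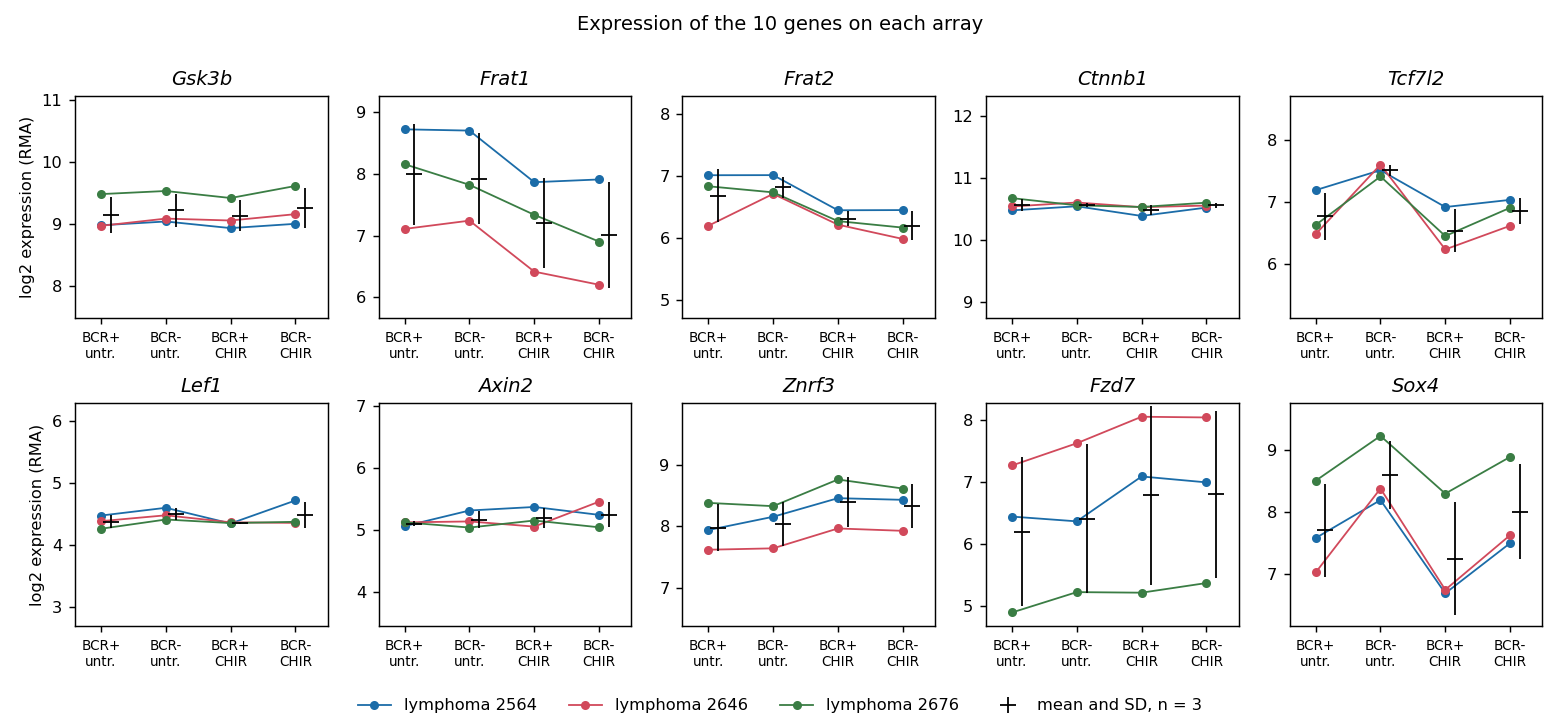
Log2 expression (RMA) of the 10 genes on each of the 12 arrays, by group (BCR+ and BCR-, untr. for untreated, CHIR for CHIR99021); coloured lines join the 4 arrays of a lymphoma, and black marks give the mean and SD, n = 3. Each panel spans the same range of log2 units, so that Frat1 and Frat2 fall to the right, Znrf3 and Fzd7 rise to the right, Sox4 and Tcf7l2 peak in untreated BCR-negative cells, and Axin2 and Lef1 stay flat.

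With CHIR99021, 6 of the 10 genes changed, some up and some down. Averaged over BCR-positive and BCR-negative cells, Frat1, Frat2, Tcf7l2 and Sox4 fell and Znrf3 and Fzd7 rose, while Axin2, Lef1, Ctnnb1 and Gsk3b did not pass the test. Differences are given on the log2 scale with their standard error (SE) from limma, and genes with an adjusted p under 0.05 over all 18820 genes are called. In this averaged comparison 2 members were called higher, beside 3.91% of all genes, and 4 lower, beside 3.47%, or 6 of 10 beside 7.38% either way. Of all calls 53% were higher, against 77% after subtraction of array medians and 42.1% after cyclic loess, and the 6 called members kept their direction and call under both scalings. The 10 genes were chosen with earlier results of these data known, so that this share is a description only.

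Frat1 was at 8.72, 7.11 and 8.15 (log2 level) in untreated BCR-positive cells of lymphomas 2564, 2646 and 2676, and at 7.86, 6.42 and 7.33 with CHIR99021. Its levels in BCR-negative cells were 8.70, 7.24 and 7.82 untreated and 7.91, 6.21 and 6.90 with CHIR99021. The treated array was the lower one in 6 of 6 matched pairs, although the groups overlapped across lymphomas, since 2564 was highest and 2646 lowest in every group. Here and below, the BCR-positive and BCR-negative pairs of a lymphoma came from the same cultures and are not independent. Frat1 fell by 0.79 ± 0.0991 (SE) in BCR-positive cells, to 0.579 of the untreated signal (limma, adjusted p = 0.0387, n = 3). In BCR-negative cells it fell by 0.91 ± 0.0991, to 0.531 (limma, adjusted p = 0.00404), and averaged over both populations by 0.85 ± 0.0701, to 0.555 (limma, adjusted p = 0.000725).

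Frat2 was at 7.01, 6.20 and 6.83 in untreated BCR-positive cells of 2564, 2646 and 2676 and at 6.45, 6.21 and 6.27 with CHIR99021. BCR-negative cells had 7.01, 6.71 and 6.73 untreated and 6.45, 5.98 and 6.17 treated. It was lower with CHIR99021 in 5 of 6 pairs, and the exception was lymphoma 2646 in BCR-positive cells. The treated BCR-negative arrays all lay below the untreated ones. Frat2 fell by 0.62 ± 0.111 in BCR-negative cells (limma, adjusted p = 0.0218) and by 0.50 ± 0.0786 on average (limma, adjusted p = 0.00891), and its value of -0.37 ± 0.111 in BCR-positive cells did not pass (limma, adjusted p = 0.275). Gsk3b itself, the target of the drug, lay between 8.93 and 9.61 on all 12 arrays and differed by 0.02 ± 0.0373 on average, with a 95% interval from -0.07 to 0.10. Gsk3a, the other GSK3 gene, was measured only in a probe set that names several genes and is not analysed here. Gskip, which encodes another GSK3-binding protein, had a value of 0.10 ± 0.0712 and did not pass.

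Znrf3 encodes a ubiquitin ligase that removes Frizzled receptors from the cell surface and is itself raised by β-catenin. It was at 7.94, 7.62 and 8.38 in untreated BCR-positive cells of 2564, 2646 and 2676, and at 8.46, 7.97 and 8.76 with CHIR99021. In BCR-negative cells the values were 8.16, 7.65 and 8.33 untreated and 8.43, 7.93 and 8.61 treated. The treated array was higher in 6 of 6 pairs, by 0.27 to 0.51, and the order of the lymphomas was the same in all groups. Averaged over both populations Znrf3 rose by 0.35 ± 0.0433, or 1.27-fold (95% interval 1.19 to 1.36; limma, adjusted p = 0.00359). It rose by 0.28 ± 0.0613 in BCR-negative cells (limma, adjusted p = 0.0401), while its larger value of 0.41 ± 0.0613 in BCR-positive cells did not pass (limma, adjusted p = 0.0539).

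Fzd7, a Frizzled receptor gene and a known β-catenin target, was at 6.44, 7.26 and 4.89 in untreated BCR-positive cells and at 7.09, 8.05 and 5.21 with CHIR99021, in the order 2564, 2646, 2676. The BCR-negative arrays read 6.36, 7.62 and 5.22 untreated and 6.99, 8.04 and 5.37 treated. Fzd7 was the member with the widest gap between tumours, and differences between lymphomas made up 93.3% of its sum of squares over the 12 arrays. The treated array was higher in 6 of 6 pairs, with the smallest gains in lymphoma 2676, where the gene was lowest. Its levels there, 4.89 to 5.37, do not by themselves show expression, since the stroma marker Col1a1 had a mean of 5.45. The pairs of 2676 therefore say little about a response. On average Fzd7 rose by 0.49 ± 0.0838, or 1.41-fold (95% interval 1.23 to 1.60; limma, adjusted p = 0.0115). Neither population passed alone, at 0.59 ± 0.119 in BCR-positive cells (limma, adjusted p = 0.112) and 0.40 ± 0.119 in BCR-negative cells (limma, adjusted p = 0.0959).

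Axin2, the scaffold gene that is the most widely used readout of β-catenin activity, was at 5.06, 5.12 and 5.13 in untreated BCR-positive cells and at 5.37, 5.06 and 5.15 with CHIR99021, in the same order of lymphomas. Its BCR-negative levels were 5.32, 5.14 and 5.04 untreated and 5.25, 5.46 and 5.05 treated. It was higher with the drug in 4 of 6 pairs and lower in 2, and the largest gains were in lymphoma 2564 for BCR-positive cells and in 2646 for BCR-negative cells. The average difference was 0.09 ± 0.0733 (limma, adjusted p = 0.59), with a 95% interval from a 0.948-fold to a 1.19-fold level. The values in the populations were 0.09 ± 0.104 (BCR-positive) and 0.08 ± 0.104 (BCR-negative), and their intervals ended at 1.25-fold in each.

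Lef1 encodes one of the DNA-binding partners of β-catenin and is also a target. It was at 4.47, 4.38 and 4.26 in untreated BCR-positive cells and at 4.34, 4.36 and 4.35 with CHIR99021. In BCR-negative cells the values were 4.60, 4.48 and 4.41 untreated and 4.71, 4.35 and 4.37 treated. The groups overlapped, and the average difference was -0.02 ± 0.0519 with an upper 95% limit of 1.07-fold (limma, adjusted p = 0.923). The mean over the 12 arrays was 4.42 for Lef1 and 5.18 for Axin2, both above 4.12, the 30th percentile of all genes and the limit used here for a dim gene. On the same arrays T-cell markers had means from 3.17 to 5.08. Stroma and endothelium markers had means from 3.49 to 5.45 (Col1a1), apart from Pecam1 at 8.61. Levels such as those of Lef1 and Axin2 therefore do not by themselves show expression, and their flat values say little about a response. Ctnnb1 lay between 10.39 and 10.68 on all 12 arrays, with an average difference of -0.05 ± 0.0380 (limma, adjusted p = 0.59).

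Tcf7l2 (TCF4) encodes another DNA-binding partner of β-catenin and was lower with the drug. In untreated BCR-positive cells it was at 7.19, 6.48 and 6.63 and with CHIR99021 at 6.92, 6.23 and 6.45. In BCR-negative cells it was at 7.51, 7.60 and 7.41 untreated and 7.03, 6.61 and 6.91 treated. All 6 treated arrays lay below their untreated partners, and in BCR-negative cells the groups did not overlap. Tcf7l2 fell by 0.66 ± 0.135 in BCR-negative cells, to 0.634 of the untreated signal (limma, adjusted p = 0.0337), and by 0.45 ± 0.0958 on average (limma, adjusted p = 0.0252). Its value in BCR-positive cells was -0.23 ± 0.135 (limma, adjusted p = 0.637).

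Sox4, a transcription factor gene of early lymphocytes and a listed Wnt target, also had lower values with the drug in 6 of 6 pairs. It was at 7.58, 7.02 and 8.50 in untreated BCR-positive cells and at 6.69, 6.74 and 8.30 with CHIR99021. BCR-negative cells were at 8.19, 8.38 and 9.23 untreated and 7.49, 7.62 and 8.89 treated. Lymphoma 2676 was the highest in every group. The average fall was 0.53 ± 0.109, to 0.693 of the untreated signal (limma, adjusted p = 0.0219). In BCR-positive cells the value was -0.46 ± 0.155 (limma, adjusted p = 0.329) and in BCR-negative cells -0.60 ± 0.155 (limma, adjusted p = 0.0642).

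**Figure D2:**
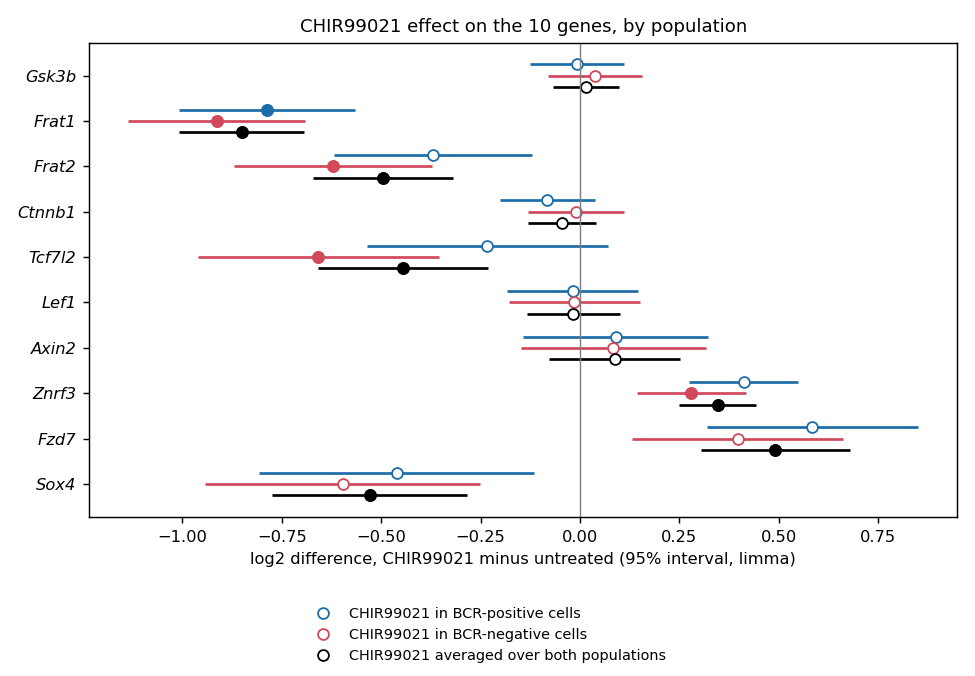
Log2 difference between CHIR99021-treated and untreated cells for the 10 genes, in BCR-positive cells (blue), BCR-negative cells (red) and averaged (black); points are limma estimates from 3 lymphomas, bars are 95% intervals, and filled points are genes called at an adjusted p under 0.05. The pair of intervals for the BCR-positive and BCR-negative cells overlapped for every gene. All intervals of Gsk3b, Ctnnb1, Lef1 and Axin2 cross 0, as does that of Tcf7l2 in BCR-positive cells.

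In BCR-positive cells alone, 1 of the 10 genes was called (Frat1, lower), beside 0.0691% of all genes called lower, 0.00531% higher and 0.0744% either way. In BCR-negative cells 3 were called lower (Frat1, Frat2 and Tcf7l2), beside 1.76% of all genes, and 1 higher (Znrf3), beside 1.91%, with 3.68% called either way. Of all these calls 52% were higher, against 76.8% after subtraction of array medians and 35.9% after cyclic loess. The difference between the populations was tested as the interaction, the CHIR99021 effect in BCR-negative minus that in BCR-positive cells. In the interaction limma called 0 of the 10 genes, with 0 of them and 990 of all genes at an unadjusted p under 0.05, and 0% of all genes were called. Tcf7l2 came closest, at -0.43 ± 0.192 (95% interval -0.85 to 0.00; limma, adjusted p = 0.928), with a more negative effect in BCR-negative cells of 3 of 3 lymphomas. Frat2 was at -0.25 ± 0.157, with -0.75 in lymphoma 2646 and 0.00 and -0.01 in 2564 and 2676. The intervals leave room for sizeable differences by BCR status, from 0.793-fold to 1.25-fold for Axin2, 0.798-fold to 1.04-fold for Znrf3 and 0.677-fold to 1.14-fold for Fzd7.

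These calls rested on the blocking by lymphoma, and most were lost without at least 1 lymphoma. Leaving out a lymphoma also lowers the residual degrees of freedom. With 1 lymphoma or array left out, the average comparison called 84 to 1659 of all genes, against 1389 in the full fit. A lost call thus does not show that an effect rested on 1 tumour. In these fits the average difference was 0.31 to 0.37 for Znrf3 and 0.42 to 0.62 for Fzd7. It was -0.9 to -0.8 for Frat1, -0.58 to -0.44 for Frat2, -0.53 to -0.35 for Tcf7l2 and -0.66 to -0.4 for Sox4. Of the 6 average effects, that of Frat1 was called without any 1 of the 3 lymphomas. Those of Znrf3 (lost without 2646), Frat2 (without 2564 or 2676), Fzd7 (without 2564 or 2646), Tcf7l2 (without 2646 or 2676) and Sox4 (without any 1 of them) were not. In single populations, Frat1 in BCR-negative cells was lost without 2646, and Frat1 in BCR-positive cells and Frat2, Tcf7l2 and Znrf3 in BCR-negative cells were lost without any 1 lymphoma.

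The sorted cells carried B-cell transcripts, and these moved with the drug as well. Cd79a, Cd79b, Pax5, Ebf1 and Cd22 had means over the 12 arrays of 9.17 to 11.42. Blk had a mean of 5.84 and ran from 4.63 to 8.65, and Ms4a1 was near the bottom at 3.24. With CHIR99021 all 7 measured B-cell markers had a negative average difference and 3 were called, Cd79b (-0.32 ± 0.0427), Pax5 (-0.37 ± 0.0799) and Ebf1 (-0.80 ± 0.187). In this averaged comparison 3.47% of all genes were called lower and 3.91% higher. The mean level of the list ran from 8.72 to 9.19 on untreated BCR-positive arrays and from 8.14 to 8.90 on treated ones, and from 8.88 to 9.07 and 8.20 to 8.86 in BCR-negative cells. Of 7 myeloid markers 1 was called (limma; 3 at an unadjusted p under 0.05), Csf1r (0.66 ± 0.164, with 0.11, 1.12 and 0.73 in lymphomas 2564, 2646 and 2676), while Itgam was at -0.50 ± 0.185 and Lyz2 at 0.21 ± 0.0707. Lyz2 was called higher in BCR-negative cells alone (0.46 ± 0.100; limma, adjusted p = 0.0388). Adgre1, Lyz2, Cd14 and S100a8 had means of 3.55 to 3.76 and Mpo of 4.58. Csf1r and Itgam were brighter, with means of 6.27 and 6.32 and highest values of 8.53 and 8.03. Of 7 stroma and endothelium markers Pecam1 fell (-0.62 ± 0.127), and its mean was 8.61. Of 8 T-cell markers none was called (limma; 1 at an unadjusted p under 0.05, Cd28 at 0.85 ± 0.286). Their means ran from 3.17 for Themis to 5.08 for Cd3e, with Cd3d at 3.85 and Cd3g at 3.87. Cd28 had a mean of 4.58 and a highest value of 6.23. None of 5 NK-cell and 2 erythroid markers was called (limma; 0 at an unadjusted p under 0.05). The part of these shifts in the results for the pathway genes was not tested. Fewer cells of a type and less RNA per cell cannot be told apart in sorted bulk samples.

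Loss of the BCR without drug was accompanied by higher Sox4 and Tcf7l2, and the other 8 genes did not pass. These 2 members of 10 called higher stand beside 1.91% of all genes called higher, 2.3% called lower and 4.2% either way. Of all these calls 45.4% were higher, against 22.1% after subtraction of array medians and 67.5% after cyclic loess, and Sox4 and Tcf7l2 were called higher under both. From the levels given above, Sox4 was higher in the BCR-negative array of 6 of 6 pairs, by 0.59 to 1.36. Without drug it rose by 0.90 ± 0.155, or 1.86-fold (95% interval 1.47 to 2.37; limma, adjusted p = 0.0223). Tcf7l2 was also higher in 6 of 6 pairs, by 0.12 to 1.12, and rose by 0.74 ± 0.135 without drug, or 1.67-fold (95% interval 1.36 to 2.06; limma, adjusted p = 0.0263). For both genes the largest gain was in lymphoma 2646, at 1.36 for Sox4 and 1.12 for Tcf7l2. Neither was called without 2646 or without 2676, nor when the fit held just the 6 untreated arrays (limma, adjusted p = 0.097 and 0.111).

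With CHIR99021 in both populations, limma called 0 of the 10 genes for BCR loss (3 at an unadjusted p under 0.05), beside 0.0159% of all genes, 0.0106% higher and 0.00531% lower. Sox4 kept a value of 0.76 ± 0.155 (limma, adjusted p = 0.385), with 0.81, 0.88 and 0.59 in lymphomas 2564, 2646 and 2676. Tcf7l2 had 0.32 ± 0.135 (limma, adjusted p = 0.564). Gsk3b was higher in the BCR-negative array of 6 of 6 pairs by at most 0.19, with values of 0.08 ± 0.0527 untreated and 0.12 ± 0.0527 treated that did not pass. Axin2 differed by 0.06 ± 0.104 in both kinds of culture, and Frat1 by -0.07 ± 0.0991 untreated and -0.20 ± 0.0991 treated. The comparison of BCR loss without drug and that of CHIR99021 in BCR-negative cells share the untreated BCR-negative arrays, so opposite signs of Sox4 and Tcf7l2 in them are not separate observations.

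**Figure D3:**
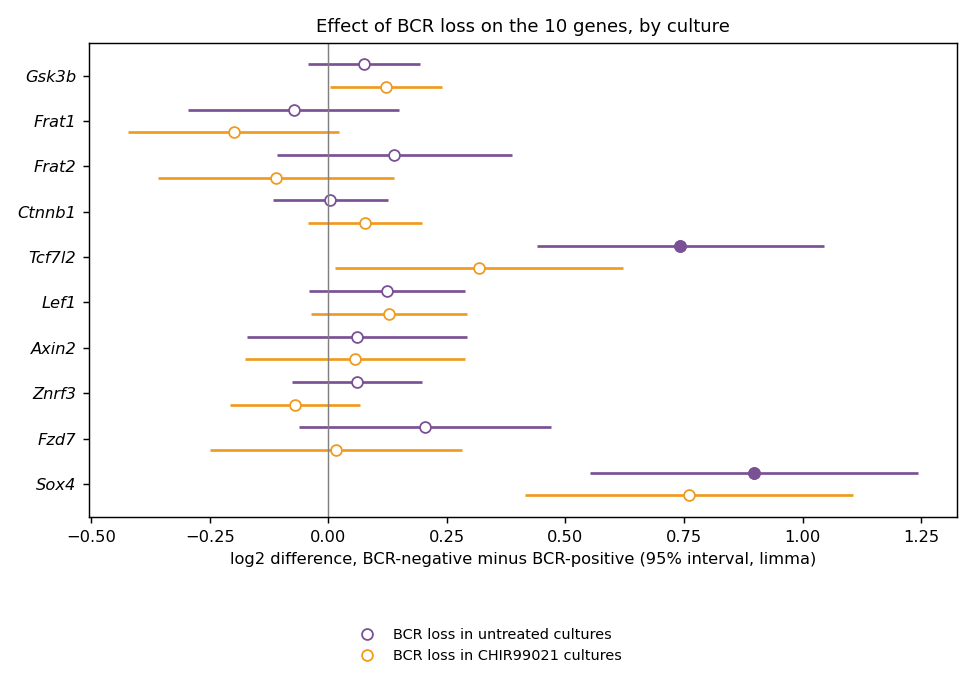
Log2 difference between BCR-negative and BCR-positive cells for the 10 genes, in untreated (purple) and CHIR99021 (orange) cultures; points are limma estimates from 3 lymphomas, bars are 95% intervals, and filled points are called. Sox4 (0.90) and Tcf7l2 (0.74) stand apart in untreated cultures, and the other 8 genes lie between -0.20 and 0.20 in both.

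Once the mean of each lymphoma was subtracted, 3 pairs of members rose and fell together. Over the 12 arrays Pearson's r was 0.916 between Frat1 and Frat2, 0.798 between Znrf3 and Fzd7 and 0.911 between Sox4 and Tcf7l2. It was -0.865 between Frat1 and Znrf3 and -0.871 between Frat1 and Fzd7. Differences between the groups were left in, so genes that changed in the same comparison correlate in part through that change. These arrays share cultures and lymphomas, and the values are descriptions. By the same measure, the genes most like Frat1 were Nrde2 (0.969), Slc25a35 (0.966) and Pef1 (0.963), and those most like Frat2 were Atg101 (0.956), Tbl1x (0.941) and Ube2a (0.94). Znrf3 was closest to Tmem115 (0.949), Bcar1 (0.945) and Esrra (0.942), and Fzd7 to Lamp1 (0.967), Insig2 (0.959) and Cercam (0.95). Tcf7l2 was closest to Aff1 (0.992), Bmf (0.991) and Tmem71 (0.983), and Sox4 to Cpm (0.984), Snx9 (0.982) and Hibadh (0.978).

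The rest of the pathway was read from 8 lists with 124 genes in all, of which 116 were measured. With CHIR99021, averaged over both populations, 6 of the 116 rose and 9 fell, beside 3.91% of all genes called higher, 3.47% lower and 7.38% either way. The median difference was 0.007 over these genes and 0.006 over all genes. Of 29 measured Wnt target genes 2 rose (Znrf3 and Fzd7), 5 fell (Lgr5, Sox4, Tcf7l2, Cd44 and Myc) and 22 did not pass, with a median of 0.01. These counts stand beside the same shares of all genes, 3.91% higher and 3.47% lower. Among those that did not pass were feedback genes that often mark β-catenin activity, Nkd1 (0.01 ± 0.0390), Rnf43 (0.03 ± 0.0508), Sp5 (0.02 ± 0.0640) and Apcdd1 (-0.04 ± 0.0432), and the cyclin gene Ccnd1 (0.17 ± 0.0881). The group means of Rnf43 (4.07 to 4.12) and Sp5 (4.08 to 4.18) lay near the limit for a dim gene, those of Apcdd1 were 4.39 to 4.53 and those of Nkd1 4.60 to 4.66. The values of Nkd1, Rnf43, Sp5 and Apcdd1 therefore say little about a response, since T-cell markers had means of up to 5.08 on the same arrays. Lgr5, the receptor for R-spondins that holds ZNRF3 in check, fell by 0.86 ± 0.191 (limma, adjusted p = 0.0286) and was lower in 6 of 6 pairs. It was between 7.35 and 9.39 on untreated arrays and between 5.93 and 8.80 on treated ones. The fall of the mouse Myc gene was small (-0.17 ± 0.0390), as was that of the adhesion receptor gene Cd44 (-0.19 ± 0.0382). Group means of Myc were 4.10 to 4.30, also near the limit for a dim gene, so its fall says little about a response. Calls of Myc and Cd44 were lost after subtraction of array medians and without any 1 lymphoma, that of Cd44 also with trend and robust eBayes, and that of Lgr5 without any 1 lymphoma.

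Of the 6 pathway genes that rose, 5 were receptors or proteins that turn them over. Of 22 measured in that list, 5 rose (Lrp5, Fzd7, Fzd9, Znrf3 and Ryk), 1 fell (Lgr5) and 16 did not pass, with a median of 0.05, beside 3.91% of all genes called higher and 3.47% lower. Lrp5, the coreceptor that binds Wnt together with Frizzled, was higher in 6 of 6 pairs. It was at 8.35, 7.67 and 7.59 in untreated BCR-positive cells of 2564, 2646 and 2676 and at 9.35, 8.28 and 7.96 with CHIR99021. BCR-negative cells had 8.25, 7.27 and 7.41 untreated and 9.06, 8.29 and 7.78 treated. Lrp5 rose by 0.74 ± 0.129 in BCR-negative cells (limma, adjusted p = 0.0207) and by 0.70 ± 0.0911 on average, or 1.62-fold (limma, adjusted p = 0.00417). In BCR-positive cells its value of 0.66 ± 0.129 did not pass (limma, adjusted p = 0.105). The average call of Lrp5 was lost without lymphoma 2646 and its call in BCR-negative cells without 2564 or 2646, that of Fzd9 (0.49 ± 0.110) without 2564 or 2646, and that of Ryk (0.21 ± 0.0449) without any 1 lymphoma.

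Of 14 measured nuclear partners, the corepressor gene Tle1 rose (0.27 ± 0.0423), Tcf7l2 and the corepressor gene Tle3 fell (-0.26 ± 0.0569 for Tle3) and 11 did not pass. Over all genes 3.91% were called higher, 3.47% lower and 7.38% either way. Tle1 was higher and Tle3 lower in 6 of 6 pairs. In BCR loss without drug, which shares the untreated arrays, Tle1 was called at -0.33 ± 0.0598 and Tle3 at 0.36 ± 0.0804. Of 13 genes of the destruction complex, Btrc, which encodes the ubiquitin ligase subunit that recognises phosphorylated β-catenin, fell by 0.29 ± 0.0567 and 12 did not pass. That 1 of 13 is close to the share over all genes. The average calls of Tle1, Tle3 and Btrc were each lost without 2564 and without 2646, and that of Tle3 after subtraction of array medians. Tcf7 was not among the genes tested. Of 21 ligand and secretion genes and 14 secreted inhibitors none was called (limma; 0 and 1 at an unadjusted p under 0.05), with medians of 0.01 and 0.001. Of 8 measured kinases and phosphatases upstream of GSK3 none was called (limma; 3 at an unadjusted p under 0.05), with a median of -0.09.

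**Figure D4:**
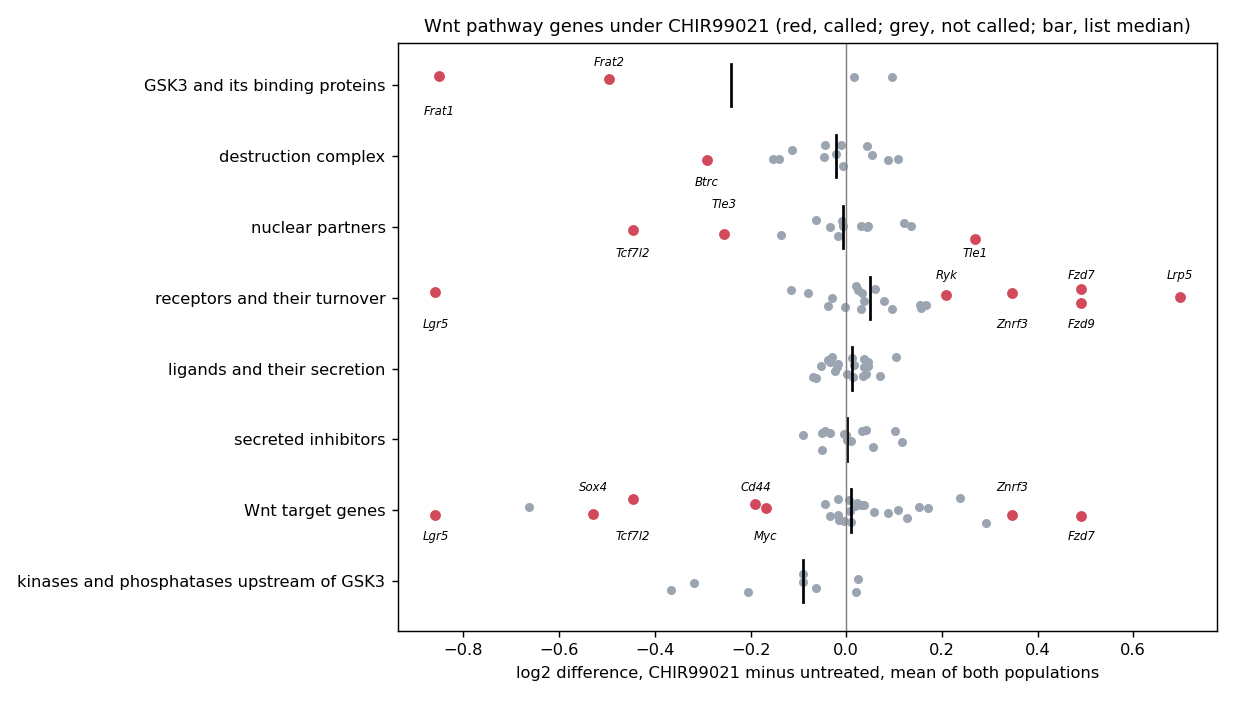
Log2 difference between CHIR99021-treated and untreated cells, averaged over both populations, for the measured genes of 8 pathway lists; each point is a gene, red points with names are called by limma at an adjusted p under 0.05, grey points are not, and black bars are list medians. Genes that belong to several lists appear in each. All called rises but that of Tle1, a nuclear partner, are of genes in the receptor list, and ligands and secreted inhibitors hold no called gene.

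In BCR-negative cells CHIR99021 called 8 of the 116, the 4 members given above with Lrp5, Tle1 (0.28 ± 0.0598), Tle3 (-0.37 ± 0.0804) and Cd44 (-0.24 ± 0.0541), beside 3.68% of all genes. In BCR-positive cells it called 1, Frat1, beside 0.0744%. The calls of Tle1, Tle3 and Cd44 in BCR-negative cells were lost without any 1 lymphoma, and also after cyclic loess (Tle1), after subtraction of array medians (Tle3 and Cd44) or with trend and robust eBayes (Tle1 and Cd44).

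In BCR loss without drug, 6 of the 116 pathway genes rose (Sox4, Tcf7l2, Sgk1, Tle3, Dvl3 and Tnks) and Tle1 fell, with a median of 0.03. Over all genes 1.91% were called higher, 2.3% lower and 4.2% either way. Sgk1, which encodes a kinase related to AKT that can phosphorylate GSK3, rose by 0.86 ± 0.159 (limma, adjusted p = 0.0273). It was at 6.21, 7.36 and 7.38 in untreated BCR-positive cells and at 6.90, 8.38 and 8.23 in untreated BCR-negative cells of 2564, 2646 and 2676. Dvl3, a transducer below Frizzled, rose by 0.35 ± 0.0812, and Tnks, which encodes the tankyrase that marks axin for degradation, by 0.33 ± 0.0629. Calls of Sgk1 and Tle1 were lost without 2646 or 2676, and those of Tle3, Dvl3 and Tnks without any 1 lymphoma. The calls of Tle3 and Dvl3 were also lost after subtraction of array medians, that of Tnks when probe sets of a gene were averaged, and all 7 when the fit held just the untreated arrays. With CHIR99021 in both populations limma called 0 of the 116 (11 at an unadjusted p under 0.05), and the interaction called 0 (1 at an unadjusted p under 0.05, Fzd8).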

How the data were processed

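The submitters' processing notes name RMA in Affymetrix Power Tools, with no versions, for the Mouse Gene 1.1 ST arrays. The authors deposited 1 log2 expression value per probe set and array, and array medians lay between 4.71 and 4.92. With arrays, their number limits the precision. Of 35556 probe sets the platform annotation gave 21218 a single gene symbol and 1881 several, and 12457 were not listed. For a gene with several probe sets the one with the highest mean over the 12 arrays was used, which left 18820 genes.

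Differences were fitted with limma 3.58.1 in R 4.3.3 (lmFit and eBayes) on all 12 arrays, with group and lymphoma as terms (6 residual degrees of freedom) and Benjamini-Hochberg adjustment. The pairing by lymphoma comes from the labels and the design text. Deviations from the group means correlated at r of 0.813 to 0.907 between arrays of the same lymphoma (18 pairs). The labels call the lymphomas independent, and p-values measure how the changes vary among these 3, with the spread pooled over all groups. BCR-positive and BCR-negative cells shared cultures, which the fit did not model. The p-values of the averaged CHIR99021 effects may therefore be too small. The script was checked on simulated data. The average of the CHIR99021 effects over both populations is the mean of the 2 population effects.

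Named are the 10 genes, every called gene of the 8 pathway lists, and the 3 genes most like each called member. Members and lists were chosen with earlier results of these data known. Start sequences are from RefSeq (GRCm38.p6). Alternatives were a fit without the block, one restricted to the arrays compared, removal of genes with a mean below the 30th percentile (4.12), averaging the probe sets of a gene, subtraction of array medians, cyclic loess, trend and robust eBayes, and leaving out each lymphoma or array.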

Additional observations from a re-analysis of the deposited data

How the results depend on the processing

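Counts here are of called genes (limma, adjusted p under 0.05) among the 116 pathway genes, members included. For CHIR99021 averaged over both populations, 15 were called, and 0 without the replicate block by lymphoma. For BCR loss without drug, 7 were called, and 0 without the block or with only the arrays compared. For CHIR99021 in BCR-negative cells, 8 were called, 0 without the block and 1 with only the arrays compared. For CHIR99021 in BCR-positive cells, 1 was called, and 0 without the block or after subtraction of array medians. The block takes out the spread between lymphomas, and all 12 arrays share 1 estimate of the spread. In the average and the interaction all arrays are compared already, so that the fit of only the arrays compared does not apply. BCR loss under CHIR99021 and the interaction gave 0 under every alternative run. With 1 lymphoma or 1 array left out, the counts ranged from 2 to 14 (average), 0 to 8 (BCR loss without drug), 0 to 9 (BCR-negative cells) and 0 to 2 (BCR-positive cells).

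Of the 13 called effects of the 10 genes, none turned its sign under any alternative. Of 1300 values of the 10 genes under the alternatives, 76 had the other sign, each of an effect that was called in neither setting. Of the 31 calls among pathway genes, 9 remained without lymphoma 2564, 2 without 2646 and 10 without 2676, and 7 remained when any single array was left out. The rise of Znrf3 in BCR-negative cells was not called after cyclic loess (0.23; limma, adjusted p = 0.069) or with trend and robust (adjusted p = 0.068), and that of Fzd7 there was called after subtraction of array medians (0.46; adjusted p = 0.0447). Over its alternatives the adjusted p ran from 0.022 to 1 for Znrf3. Over all genes, the average comparison called 1389, and 22 without the block and 1906 after subtraction of array medians, which moved the median of all genes by 0.052. Among the named Wnt targets, Rnf43, Sp5 and Myc had signals near the limit for a dim gene (4.12), which limits what can be said of them. Lef1, Axin2, Nkd1 and Apcdd1 were brighter, but at levels that markers of other cell types also reached. The same limit therefore holds for them, and for Fzd7 in lymphoma 2676.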
